A study of Mus musculus with 21 samples.

Results

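Malat1, Neat1, Miat and Snhg11 are long noncoding RNAs (lncRNAs) that are retained in the nucleus. These 4 genes were chosen by name from the 55487 genes of the deposited counts table, and all 4 passed the filter on low counts. The question was how high they are in the mouse hippocampus, how far they differ between mice, and whether maternal separation (MS) changed them against standard rearing (SR). RNA was taken from the hippocampus of 21 male wild type C57BL/6 mice at 10 weeks of age, with 1 poly-A library per mouse, 9 after MS and 12 after SR. In MS, whole nests were kept from the dam for 4 hr per day between postnatal day 10 and 17, and part of the nesting material of the home cage was taken away. SR nests were not separated. All mice of a nest therefore shared a rearing condition, and litters had been evened out over dams after birth in both groups. The labels name no nest. Animal numbers run in sets of 3, and a mouse is named here by the letter of its set and its place in it. MS holds sets A, B and C, and SR holds D, E, F and G. Whether a set is a nest is not given in the sources used here. The sets A, B, D, E and F lie in a first range of animal numbers, and C and G in a second.

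Each of the 4 RNAs is transcribed by RNA polymerase II and stays largely at or near chromatin or in nuclear bodies. Malat1 collects in nuclear speckles, the stores of splicing factors, and does not end in a conventional poly-A tail. Its 3′ end is cut by RNase P in front of a tRNA-like RNA and is then protected by a triple helix of an A-rich tract with U-rich stretches. Neat1, its neighbour on the chromosome, is the scaffold of paraspeckles. It has a short form with a poly-A tail and a long form that ends like Malat1. Miat, also called Gomafu, is a spliced RNA of neurons with repeats that bind the splicing factor Sf1. Snhg11 is a host gene of small nucleolar RNAs (snoRNAs), which are released from its introns. A library made by poly-A capture reads such RNAs through their tails or through A-rich stretches within them.

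The sequences below are from the GENCODE M21 transcripts of GRCm38, 5′ to 3′ on the strand of the transcript, and are shown because poly-A capture acts on such ends and A-rich stretches. The first is part of the 3′ region of Malat1 at chr19:5795917-5796079 on the minus strand, and the second is the 3′ end of the long Neat1 transcript at chr19:5824708-5824807 on the minus strand. Capitals mark the motif TTTTGCTTTT and the A-rich tract, which holds AAAAAGCAAAA in both.
Malat1: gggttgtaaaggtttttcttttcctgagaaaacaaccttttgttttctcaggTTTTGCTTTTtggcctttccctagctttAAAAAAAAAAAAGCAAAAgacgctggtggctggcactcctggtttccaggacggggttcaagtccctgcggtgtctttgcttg
Neat1 long form: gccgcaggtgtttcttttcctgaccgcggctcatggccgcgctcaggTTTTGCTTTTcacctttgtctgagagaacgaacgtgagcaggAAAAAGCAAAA
The annotated long form of Neat1 stopped directly after AAAAAGCAAAA, with 0 bases left, whereas the annotated Malat1 transcript went on for 292 bases through the tRNA-like stretch. On the transcript strand, TTTTGCTTTT followed by AAAAAGCAAAA within 60 bases was found in these 2 transcripts of the 48631 longest transcripts per gene, a share of 0.00411%. The motifs were picked after the sequences had been read, so the share is a description. The longest run of A in Malat1 was 12 bases, and 22.6% of 2355 transcripts of like length had a run as long. It was 7 bases in the long Neat1 transcript, 4 in the longest Miat transcript and 8 in the longest Snhg11 transcript.

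The short Neat1 transcript and the longest Miat and Snhg11 transcripts hold a poly-A signal near their end, shown in capitals in their last bases. Some shorter annotated transcripts of these genes hold none there. The annotated Malat1 transcript shown above also holds 1 near its annotated end.
Neat1 short form: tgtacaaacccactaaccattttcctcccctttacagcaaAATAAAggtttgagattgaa
Miat: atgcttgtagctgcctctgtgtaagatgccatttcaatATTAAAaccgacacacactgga
Snhg11: gaaccacaaAATAAAcactgtcttccttaa
Miat is further known for its ACTAAC repeats. The longest Miat transcript, of 9163 bases, held 11 of them on its own strand, 6 of them within TACTAAC, and 0.176% of 1138 transcripts of like length held as many. The 300 bases from position 4857 of that transcript, minus strand of chromosome 5, carry 4 of the 11, in capitals.
Miat repeats: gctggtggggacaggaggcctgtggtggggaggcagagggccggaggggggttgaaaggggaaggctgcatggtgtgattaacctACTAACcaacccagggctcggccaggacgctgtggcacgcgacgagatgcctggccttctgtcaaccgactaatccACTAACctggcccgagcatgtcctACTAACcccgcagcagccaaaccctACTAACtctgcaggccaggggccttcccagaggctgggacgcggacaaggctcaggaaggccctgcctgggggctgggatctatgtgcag

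In the GENCODE M21 annotation of GRCm38, Malat1 (ENSMUSG00000092341) spans chr19:5795690-5802672 on the minus strand. Neat1 (ENSMUSG00000092274) follows 22035 bases further on, at chr19:5824708-5845478 on the same strand. Miat (ENSMUSG00000097767) lies at chr5:112213228-112229395 on the minus strand and Snhg11 (ENSMUSG00000044349) at chr2:158375638-158386145 on the plus strand. GENCODE M21 calls the first 3 lincRNAs and Snhg11 protein-coding, and RefSeq lists all 4 as lncRNAs.

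One MS library, A2, stood apart and was left out, as the study left out 1 outlier. On the first principal component it scored 27.1, and the other 20 lay between -12.2 and 11.9. Its summed level of 4 dentate gyrus granule cell genes was also the lowest. The remaining 8 MS and 12 SR mice give the values below, except where all 21 libraries are mentioned. Total counts in these 20 libraries lay between 17276810 and 26450808. Markers of neurons, astrocytes, oligodendrocytes and microglia were detected in every library, with the 8 neuron genes summing to 8139 to 11364 CPM (counts of a gene scaled to the normalized library size). The 5 choroid plexus genes varied most, from 28.3 to 4470 CPM, and the 5 striatum genes lay between 22.0 and 296 CPM.

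All 4 lncRNAs were well above the detection limit in every mouse, with Neat1 far below the rest. Together they took 0.293% to 0.376% of the counts of a library. Snhg11 had the highest level, with a mean of 1851 CPM over the 20 mice, rank 29 of 18146 genes tested and rank 2 among 1744 tested lncRNAs, Snhg11 included. Miat followed with 726 CPM, Malat1 with 621 CPM and Neat1 with 101 CPM, ranks 132, 167 and 2200 of all genes tested. Per length, as TPM (counts per exonic base, scaled to the same total in every library), the order was Snhg11 with 737 ± 102.1 TPM (SD, n = 20), Malat1 with 301 ± 28.03 TPM, Miat with 265 ± 23.3 TPM and Neat1 with 16.6 ± 4.02 TPM. The Malat1 and Miat values overlapped between mice, from 265 to 380 TPM against 206 to 295 TPM, whereas Snhg11 with 530 to 931 TPM and Neat1 with 9.41 to 22.7 TPM did not overlap another member. The Neat1 value was taken over the 20771 bases of the long form, which also hold the 3004 bases of the short form. Counts of a gene do not tell the forms apart, and its level per length depends on that choice.

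**Figure D1:**
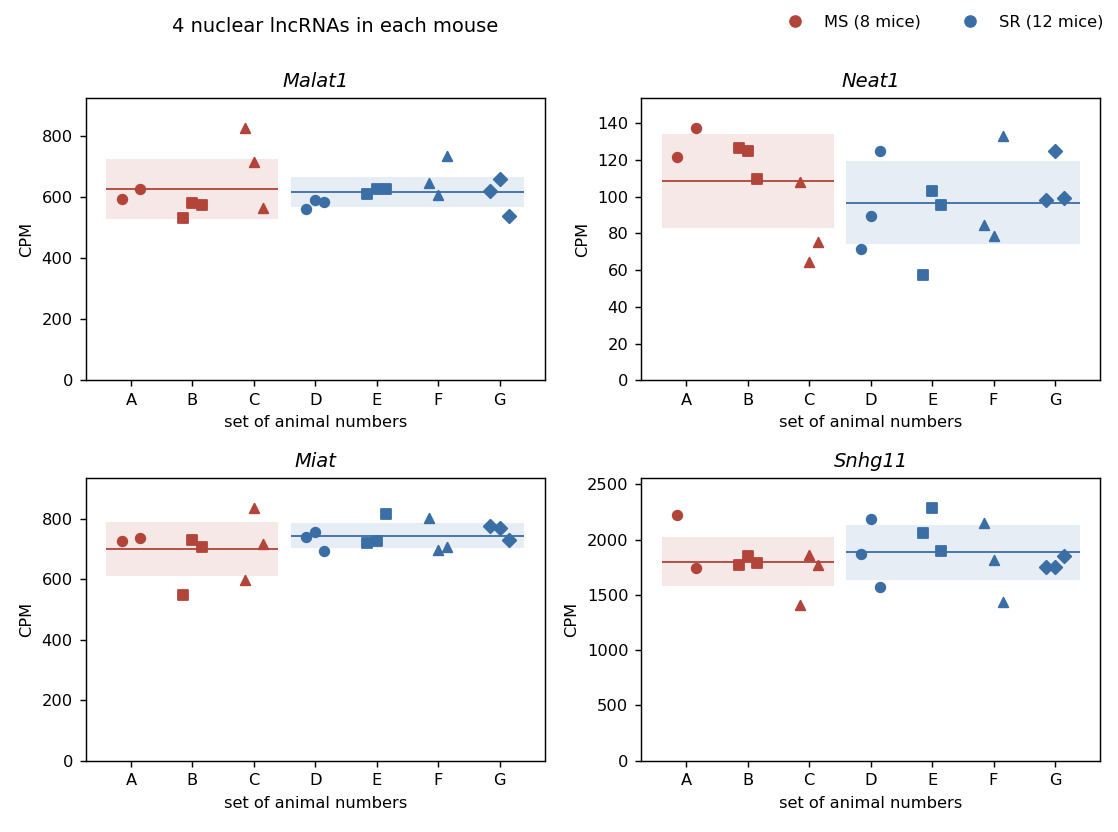
CPM of Malat1, Neat1, Miat and Snhg11 (vertical axes) in each of 20 mice, by set of animal numbers, with red for MS, blue for SR, a line at the mean of each condition and a band of ± 1 SD. The conditions overlap in all 4 panels, and set C holds the highest Malat1 values (826 and 715 CPM) and 2 low Neat1 values (64.7 and 75.4 CPM) of MS.

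Neat1 was also the most variable of the 4 between mice of a condition. Its biological coefficient of variation (BCV, the spread left after counting error) was 24.0%, where genes of its level had a trend of 9.17%, and 98.3% of genes tested had a lower ratio of BCV to trend. Malat1 had a BCV of 10.8% against a trend of 9.62%, Snhg11 of 12.5% against 10.2%, and Miat of 9.20% against 9.73%. Between the lowest and the highest mouse, Neat1 differed 2.398-fold, from 57.3 CPM in E1 to 137 CPM in A3. The same ratio was 1.62 for Snhg11, 1.56 for Malat1 and 1.52 for Miat. Counting error contributed little, with an expected coefficient of variation of 2.13% for Neat1 and 0.859% or less for the others.

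**Figure D2:**
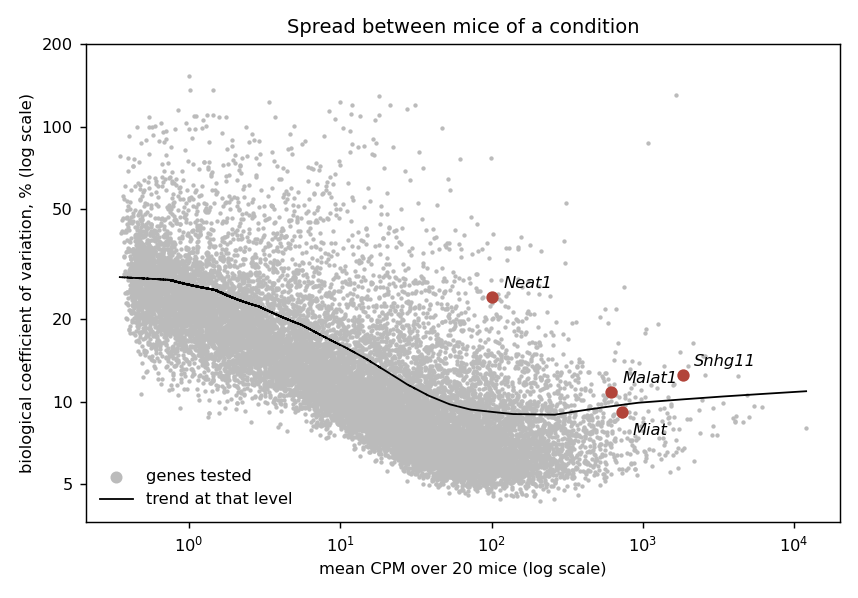
Biological coefficient of variation in percent (log scale) against mean CPM over 20 mice (log scale) for 18146 genes tested, with the trend at each level as a line and the 4 lncRNAs in red. Neat1 at 24.0% lies far over the trend of 9.17%, and Malat1, Miat and Snhg11 lie near theirs.

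MS and SR were compared to see whether separation in early life leaves a lasting difference in these RNAs. None of the 4 differed beyond the spread between mice. By edgeR's quasi-likelihood test with Benjamini-Hochberg adjustment, 0 of 4 were called at adjusted p under 0.05, where 0.011% of all genes tested were called, and 0 of 4 had an unadjusted p under 0.05, where 11.5% of all genes did. DESeq2 also called 0 of 4, with 0.966% of its 13871 genes called. On counts simulated from these libraries, the edgeR test recovered 73.1% of 67 genes changed 1.3-fold and 95.5% of 67 changed 1.5-fold. These shares are over the changed genes together and were not taken for each member. The simulation also held 66 genes changed 2-fold, whereas the comparison of the real counts called 2 genes. Benjamini-Hochberg adjustment sets a looser cut-off when more genes pass, so the shares can overstate recovery in the real comparison. With its BCV of 24.0% against a trend of 9.17%, Neat1 was more variable than most genes. The shares therefore do not tell how large a change of Neat1, or of another member, would have been called.

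Malat1 was between 530 and 826 CPM in MS (median 586) and between 539 and 734 CPM in SR (median 615). Of 8 MS mice, 6 lay within the SR range, C1 above it and B1 below it. The means were 626 ± 97.8 CPM (SD, n = 8) and 617 ± 50.1 CPM (SD, n = 12), with a log2 fold change of 0.020 (SE 0.0683, edgeR adjusted p = 0.942). The direction rested on single mice: it was -0.047 without C1, -0.0095 without C2 and -0.089 without set C, but 0.10 without set B and 0.060 with all 21 libraries.

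Neat1 was between 64.7 and 137 CPM in MS (median 116) and between 57.3 and 133 CPM in SR (median 97.0). Here 7 of 8 MS mice lay within the SR range and A3 just above it. The means were 108 ± 25.7 CPM (SD, n = 8) and 96.8 ± 22.7 CPM (SD, n = 12), a log2 fold change of 0.16 (SE 0.158, edgeR adjusted p = 0.737). The value depended on the set: it was 0.066 without set A, 0.066 without set B, 0.11 without set E and 0.36 without set C (edgeR adjusted p = 0.234). With all 21 libraries it was 0.17. The 5 choroid plexus genes stood beside it with a median log2 fold change of 0.90 over the list, all 5 positive and 0 of 5 called. Their summed level ran from 52.0 to 4144 CPM in MS (median 3272) and from 28.3 to 4470 CPM in SR (median 825). A2, the library left out, had 12.8 CPM. The part of the choroid plexus genes in the Neat1 value was not tested.

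Miat was between 549 and 834 CPM in MS (median 722) and between 693 and 817 CPM in SR (median 735). The SR mice lay close together, and 2 MS mice, B1 with 549 and C1 with 599 CPM, lay below all of them, while C2 lay above. The means were 700 ± 88.0 CPM (SD, n = 8) and 744 ± 40.1 CPM (SD, n = 12), a log2 fold change of -0.089 (SE 0.0571, edgeR adjusted p = 0.570). With all 21 libraries it was -0.11 (edgeR adjusted p = 0.452). Neuron genes had a median log2 fold change of -0.072 in the same comparison, with 6 of 8 negative and 2 positive. Of the 8, 0 were called, where 0.011% of all genes tested were. At an unadjusted p under 0.05, 2 were lower and 0 higher, where 11.5% of all genes tested were under it. The part of the neuron genes in the Miat value was not tested.

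Snhg11 was between 1406 and 2221 CPM in MS (median 1777) and between 1437 and 2282 CPM in SR (median 1859). Here 7 of 8 MS mice fell within the SR range, and C1 was just below it. The means were 1800 ± 222 CPM (SD, n = 8) and 1885 ± 250 CPM (SD, n = 12), a log2 fold change of -0.067 (SE 0.0796, edgeR adjusted p = 0.797). It was -0.0041 with all 21 libraries, where A2 had 2517 CPM.

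The Neat1 to Malat1 ratio within a library does not depend on library size or on normalization. On the log2 scale of counts it was -2.56 ± 0.491 (SD, n = 8) after MS against -2.71 ± 0.322 (SD, n = 12) after SR. The difference of 0.15 was within the spread between mice (two-sided exact permutation test, p = 0.416).

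The effect of MS was next taken within each range of animal numbers, since both conditions occur in both. Neat1 was higher in MS in the first range and lower in the second. In the first range, the 5 MS mice lay between 109 and 137 CPM, and the 9 SR mice between 57.3 and 133 CPM, a log2 fold change of 0.41 (SE 0.168, edgeR p = 0.0253, adjusted p = 0.258). None of the 4 was called in that range, where 0.0496% of genes tested were. In the second, the 3 MS mice had 64.7, 75.4 and 108 CPM and the 3 SR mice 98.4, 99.1 and 124.7 CPM, a log2 fold change of -0.38 (SE 0.250, edgeR adjusted p = 0.814). The difference between the ranges was -0.79 (SE 0.301, edgeR p = 0.0178, adjusted p = 0.506), which did not pass after adjustment. The summed choroid plexus genes lay between 3079 and 4144 CPM in the MS mice of the first range. In its SR mice other than D3, at 4470 CPM, they lay between 28.3 and 1969 CPM. In the second range they had 52.0, 918 and 1352 CPM in MS and 53.5, 1500 and 4010 CPM in SR. Their part in the Neat1 values was not tested.

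Malat1 had the opposite signs, -0.097 (SE 0.0737) in the first range and 0.21 (SE 0.107) in the second. In the second range the 3 MS mice had 564, 715 and 826 CPM, and the 3 SR mice 539, 621 and 658 CPM. The difference between ranges was 0.31 (SE 0.130, edgeR p = 0.0275, adjusted p = 0.531). Miat was -0.10 and -0.080, and Snhg11 -0.035 and -0.088, in the first and the second range. The test of the difference called 0 of 18146 genes, with 1573 genes, 8.67%, at an unadjusted p under 0.05. In the second range MS is the single set C and SR the single set G, so that rearing and set cannot be told apart there. The first range holds sets A and B in MS and D, E and F in SR, and its p-values are over mice, not sets.

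**Figure D3:**
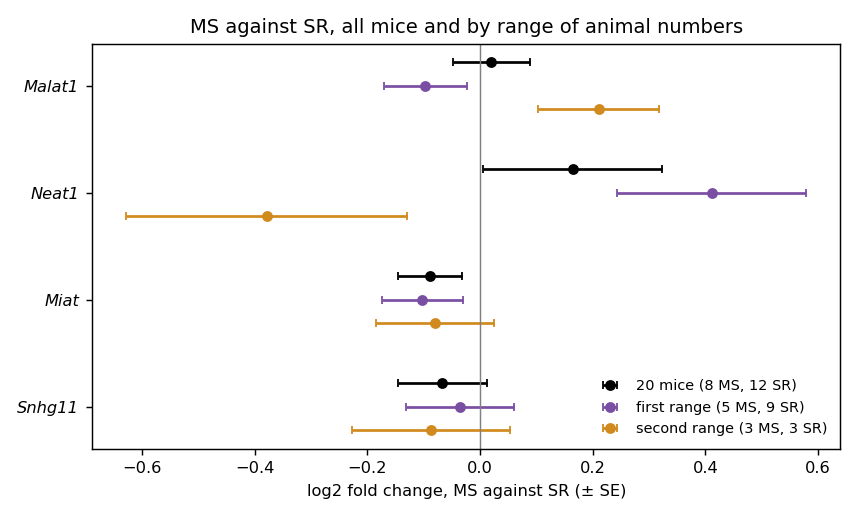
Log2 fold change of MS against SR (horizontal axis, bars ± SE) for each lncRNA over 20 mice and within the first and the second range of animal numbers. The values over 20 mice lie between -0.089 and 0.16, and Neat1 and Malat1 have opposite signs in the 2 ranges.

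Sets of animal numbers were compared within conditions to see whether mice of a set resembled each other. Mean Malat1 was 609 CPM in set A, 562 CPM in B and 702 CPM in C, and between 579 and 663 CPM in the 4 SR sets. Mean Neat1 was 130, 120 and 82.6 CPM in A, B and C, and between 85.3 and 107 CPM in the SR sets. Within the SR sets the Neat1 values were spread as widely as between them, for example from 71.7 to 124.9 CPM in D. Across sets, edgeR gave adjusted p = 0.551 for Malat1, 0.720 for Neat1, 0.953 for Miat and 0.795 for Snhg11, so that 0 of 4 were called, where 0.0331% of genes tested were. For Malat1 the MS sets alone had an unadjusted edgeR p = 0.0197 (adjusted p = 0.379).

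RNA quality and capture were then set against the levels, with 5 measures per library and 20 relations in all, p-values from 100000 permutations and Benjamini-Hochberg adjustment over the 20. The study reports that every sample passed its RNA quality control. The 5 measures were taken from the counts and are not a direct measure of RNA integrity. The length trend is the correlation across genes, within 1 library, of log2 CPM with log2 exonic length, and a low value means that long genes had relatively few counts. It lay between 0.450 in C1 and 0.492 in B1. The other measures were the shares of counts from mitochondrial, ribosomal protein, histone and small noncoding RNA genes. Histone mRNAs and most small noncoding RNAs lack a poly-A tail, but their shares did not behave as 1 gauge of the capture. C1 had the highest histone share, 0.0155%, and the lowest small noncoding share, 0.0070%. Snhg11 was related to the 2 shares with opposite signs. What either share measures was not tested. Of the 20 relations, 6 had an adjusted p under 0.05.

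Malat1 fell with the length trend. Pearson's r was -0.86 (permutation p = 2e-05, adjusted p = 0.00030) and Spearman's rho -0.71 (permutation p = 0.00073, adjusted p = 0.0070). Without C1 and C2, the 2 mice farthest from the median, r was -0.69, and it was -0.75 within the 14 mice of the first range and -0.93 within the 6 of the second. C1, with the lowest trend of 0.450, had the highest Malat1 of 826 CPM, and B1, with the highest trend of 0.492, had the lowest Malat1 of 530 CPM. With the trend as a term in the edgeR fit, the log2 fold change of MS against SR was -0.037, and its SE fell from 0.0683 to 0.0390. Malat1 was also related to the ribosomal protein share by Pearson's r of 0.58 (permutation adjusted p = 0.044), but rho was 0.35 (adjusted p = 0.295), and r was 0.15 without C1 and A3 and 0.12 in the first range. With the condition means taken off, r was 0.67 (permutation adjusted p = 0.012), rho was 0.55 (permutation adjusted p = 0.050), and r was 0.34 without C1 and C3 and 0.77 in the first range. The size of this relation therefore depended on whether the difference between conditions was left in.

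Snhg11 rose with the share of small noncoding RNA genes, which lay between 0.0070% and 0.0102% of counts. Pearson's r was 0.78 (permutation p = 3e-05, adjusted p = 0.00030), rho was 0.72 (permutation adjusted p = 0.0070), and r was 0.62 without C1 and E2. It was 0.74 in the first range and 0.83 in the second. Genes that overlap 1 of the 4 lncRNAs, the snoRNA genes inside Snhg11 included, were left out of that share, and its largest contributor, Snord91a, gave 4.05% of it. Snhg11 fell with the histone share, with r of -0.67 (permutation adjusted p = 0.0069), rho of -0.69 and r of -0.58 without C1 and A3.

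The histone share was higher in MS, with 0.0132% ± 0.00138 (SD, n = 8) against 0.0111% ± 0.00099 (SD, n = 12) in SR. Neat1 rose with it, with r of 0.56 (permutation adjusted p = 0.044), rho of 0.66 (permutation adjusted p = 0.0089) and r of 0.55 without the 2 farthest mice, 0.74 in the first range and 0.23 in the second. Miat fell with it, with r of -0.55 (permutation adjusted p = 0.044), rho of -0.51 (permutation adjusted p = 0.062) and r of -0.48 without the 2 farthest mice. With the condition means taken off, the Miat relation no longer passed (r = -0.45, permutation adjusted p = 0.135), with r of -0.18 in the first range and -0.88 in the second. For Neat1 and the length trend, r was 0.067, with 0.048 in the first range and 0.055 in the second. For Miat it was -0.12, with -0.69 in the first range and 0.39 in the second. The correlations were not tested against each other.

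**Figure D4:**
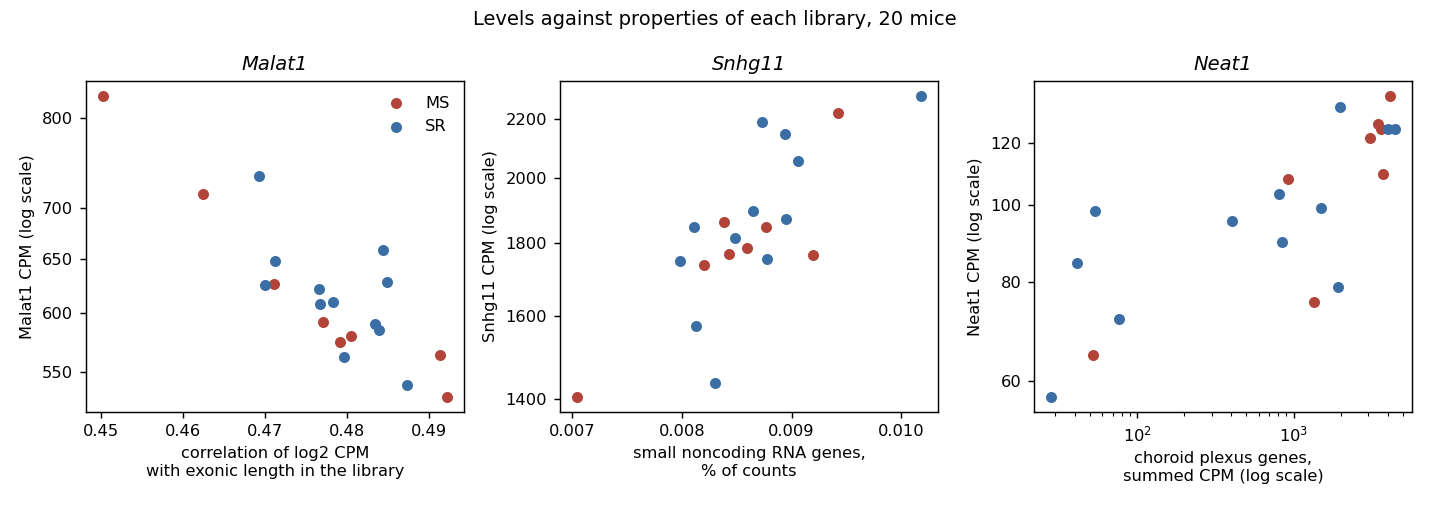
CPM (vertical axes, log scale) of Malat1 against the length trend, of Snhg11 against the share of small noncoding RNA genes and of Neat1 against the summed CPM of 5 choroid plexus genes (log scale), 1 point per mouse, red for MS and blue for SR. Malat1 falls along its axis (r = -0.86), Snhg11 rises (r = 0.78), and the 5 mice with the least choroid plexus RNA have Neat1 at 57.3 to 98.4 CPM.

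The hippocampus holds many cell types, and in bulk RNA fewer cells of a type and less RNA per cell cannot be told apart. The 4 lncRNAs were set against the summed CPM of 9 lists of marker genes, 36 relations in all, adjusted over the 36. This was added after the genes most alike had been seen. Neat1 rose with the choroid plexus genes over the 20 mice (r = 0.78, permutation adjusted p = 0.0029), where rho was 0.81 (permutation adjusted p = 0.0018). Here r was 0.72 without E1 and F1, and 0.85 and 0.56 in the 2 ranges. The mice were then split at the largest gap in the log2 of that summed level. This gave 5 mice (1 MS and 4 SR) with 28.3 to 76.5 CPM and 15 (7 MS and 8 SR) with 403 to 4470 CPM. Neat1 lay between 57.3 and 98.4 CPM (median 71.7) in the 5 and between 75.4 and 137 CPM (median 109) in the 15. Within the 15 mice, r was 0.61 (permutation p = 0.017, adjusted p = 0.081), rho was 0.71 (permutation p = 0.0040, adjusted p = 0.049), and r was 0.66 without E3 and E2 and 0.64 in the 11 mice of the first range. For this adjustment, the p-value within the 15 mice took the place of the one over 20 mice among the 36. Neat1 also rose with oligodendrocyte genes (r = 0.56, permutation adjusted p = 0.045), where rho was 0.45 (permutation adjusted p = 0.174), r was 0.47 without C2 and C1, and the values within the ranges were 0.52 and 0.70.

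Snhg11 fell with the 4 dentate gyrus granule cell genes. Over 20 mice r was -0.76 (permutation adjusted p = 0.0029), rho was -0.65 (permutation adjusted p = 0.049) and r was -0.64 without E2 and A1. It was -0.83 in the first range and -0.14 in the second, so the relation was seen in the first range. Snhg11 also rose with 5 immediate early genes, with r of 0.62 (permutation adjusted p = 0.020) and rho of 0.62 (permutation adjusted p = 0.049). Here r was 0.39 without A1 and E2, 0.70 in the first range and -0.16 in the second, and 0.65 with the condition means taken off (permutation adjusted p = 0.015).

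Miat rose with the neuron genes, with r of 0.70 (permutation adjusted p = 0.0083) and rho of 0.52 (permutation adjusted p = 0.103), 0.41 without C2 and B1, and 0.65 and 0.81 in the 2 ranges. Malat1 rose with astrocyte genes (r = 0.66, permutation adjusted p = 0.013), where rho was 0.53 (permutation adjusted p = 0.103), r was 0.55 without C1 and A1, and the values within the ranges were 0.51 and 0.74. For microglia genes Malat1 had the same r of 0.66 (permutation adjusted p = 0.013), rho of 0.43 (permutation adjusted p = 0.199) and r of 0.39 without C1 and B1.

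No pair of the 4 lncRNAs passed a test of a shared pattern over mice. After the mean of each condition was taken off, r over the 20 mice was 0.025 for Malat1 and Neat1, 0.091 for Malat1 and Miat, -0.42 for Malat1 and Snhg11, -0.30 for Neat1 and Miat, -0.34 for Neat1 and Snhg11, and 0.39 for Miat and Snhg11. Without that step, 0 of the 6 pairs passed a permutation test with adjustment over the 6 (adjusted p from 0.192 to 0.896 for Pearson's r). For Malat1 and Miat, r was 0.073 over the 20 mice and 0.71 without C1 and F3, so that those mice decided its size.

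The 5 genes most like each lncRNA were taken by Pearson's r of log2 CPM over the 20 mice, again with the condition means taken off. These values are descriptions, and genes of 1 library share its depth and quality. For Malat1 they were Aldh1a1 (0.86), a retinaldehyde dehydrogenase, Psd (0.86), an exchange factor for Arf6, Napa (0.86), which recycles SNARE complexes, Fndc5 (0.85), the precursor of irisin, and Rps7 (0.85), a ribosomal protein. For Neat1 they were Loxl3 (0.93), a lysyl oxidase-like enzyme, Igfbp7 (0.88), a secreted binding protein of insulin-like growth factors, Tmem98 (0.88), and the tetraspanins Cd9 (0.85) and Cd82 (0.85). The mean level of these Neat1-like genes was low, from 6.09 CPM for Loxl3 to 36.6 CPM for Cd9.

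For Miat the most alike were Brd9 (0.90), a subunit of chromatin remodelling complexes, Sfswap (0.89), a splicing regulator, Ints10 (0.87), a subunit of the Integrator complex, Madd (0.86), an exchange factor for Rab3, and the lincRNA C230057M02Rik (0.84). For Snhg11 they were Meg3 (0.97), Farp1 (0.94), Ank1 (0.94), Chd5 (0.94) and Kif21b (0.94). Meg3 is an imprinted lncRNA that also stays in the nucleus, Ank1 is an ankyrin of the membrane skeleton, Chd5 a chromatin remodeller of neurons and Kif21b a kinesin. Meg3 had 4764 ± 381 CPM (SD, n = 8) after MS against 5029 ± 591 CPM (SD, n = 12), with a log2 fold change of -0.078 (SE 0.0671, edgeR adjusted p = 0.699).

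Annotated neighbours were looked at for shared reads. Gm27694 and Gm37376 overlap Malat1, Gm27533, Gm27505 and Gm28006 overlap Neat1, Gm27998, Gm27882, Gm27627 and Gm27357 overlap Miat, and Gm25187 overlaps Snhg11, and each of these had 0 counts in the 20 libraries. All of these overlapping genes share exonic bases with the member. How reads that fit 2 genes were counted is not given in the sources used here. The 0 counts therefore do not tell whether reads are shared or were lost from the member. The annotated small RNA gene Gm27702, directly after the 3′ end of Neat1, also had 0 counts. Gm26953, which lies on the other strand of Miat and shares 2260 exonic bases with it, had a mean of 12.9 counts, and the snoRNA gene Gm25129 within Snhg11 had 82.2. The strand setting of the counting is not given in the sources used here, so reads of Miat and Gm26953 may not be separated.

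No other gene tested within 100 kb was called. Around Malat1 and Neat1, 0 of 9 and 0 of 11 tested neighbours were called, each counting the other member, with log2 fold changes between -0.15 and 0.16. The same 2 around both had an unadjusted p under 0.05, where 11.5% of all genes tested did. These were Frmd8, 4224 bases from Neat1, with 0.13 (SE 0.0627, edgeR adjusted p = 0.424) and Ehbp1l1 with 0.16 (SE 0.0603, edgeR adjusted p = 0.302). Ltbp3, on the Malat1 side, had 0.16. Around Miat 0 of 4 were called, and Tpst2 and Tfip11 had -0.023 and -0.065. Around Snhg11 0 of 4 were called. Its neighbour host gene Snhg17, 14058 bases away, had -0.0033, and Lbp had 0.73 with a wide error (SE 0.527, edgeR adjusted p = 0.630).

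Related RNAs were described from lists by their counts and medians, beside a median log2 fold change of 0.00084 over all 18146 genes, of which 50.3% were positive. Among 15 tested of 16 other nuclear lncRNAs, 0 were called and 0 had an unadjusted p under 0.05, with a median of -0.041. The highest in level after Meg3 were Rian and Peg13, with log2 fold changes of -0.041 and -0.020, and the extremes of the log2 fold change were Mirg with 0.068 and Xist with -0.27 (SE 0.318) at a mean of 13.4 counts. Among 13 tested of 18 other snoRNA host genes, 0 were called, with a median of 0.088. Of the 13, 3 had an unadjusted p under 0.05, where 11.5% of all genes tested did, and the 3 were higher in MS. Gas5, the most abundant, had 0.024 (edgeR adjusted p = 0.927), Snhg20 0.24 (edgeR adjusted p = 0.246) and Zfas1 0.27 (edgeR adjusted p = 0.288).

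The proteins that build paraspeckles on Neat1 were tested for 18 of 18 genes, with 0 called and a median of -0.0085. At an unadjusted p under 0.05, 2 were higher and 2 lower, where 11.5% of all genes tested were under it. Sfpq, a core paraspeckle protein, had 169 ± 11.6 CPM (SD, n = 8) after MS against 156 ± 9.19 CPM (SD, n = 12), with a log2 fold change of 0.12 (SE 0.0412, edgeR adjusted p = 0.285). Ss18l1, the lowest, had -0.11 (edgeR adjusted p = 0.247), and the abundant Hnrnpk and Ewsr1 had -0.023 and -0.040.

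For the nuclear speckles, where Malat1 collects, 23 of 23 genes were tested and 0 called. At an unadjusted p under 0.05, 7 were higher and 4 lower, 11 of 23 where 11.5% of all genes tested were, and the median was 0.021. Srrm2, a scaffold of speckles, had 940 ± 106 CPM (SD, n = 8) after MS against 1037 ± 35.1 CPM (SD, n = 12), with a log2 fold change of -0.14 (SE 0.0514, edgeR adjusted p = 0.289). Tra2a, a splicing regulator, had 0.16 (SE 0.0499, edgeR adjusted p = 0.217). Son and Rsrp1 had -0.035 and -0.055.

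Among 14 genes of 3′ end processing and of proteins that bind these RNAs, 0 were called, with a median of -0.0055. Of the 14, 1 had an unadjusted p under 0.05, where 11.5% of all genes tested did. That gene was Celf3, a neuronal RNA-binding protein, with 221 ± 19.2 CPM (SD, n = 8) after MS against 245 ± 13.2 CPM (SD, n = 12), with a log2 fold change of -0.15 (SE 0.0443, edgeR adjusted p = 0.196). Sf1, which binds the Miat repeats, had -0.0018 (edgeR adjusted p = 0.991), and Qk, another RNA-binding protein, -0.0092. Pop5, a subunit of RNase P, had 0.13 (SE 0.0657, edgeR adjusted p = 0.444).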

How the data were processed

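Raw counts per Ensembl gene were deposited by the authors, with 1 column per library. Per the labels and the study's methods, paired-end poly-A reads were aligned to GRCm38 with STAR 2.7.3a and counted with featureCounts. The counts were neither normalized nor filtered, and columns of no sample numbered 0. The column names show 1 flow cell and lane. Total counts, with A2 at 30449055 the highest, limit the precision as given by the counting error. The labels' rearing condition gave the groups. Here, edgeR 4.0.16 in R 4.3.3 was used (TMM, filterByExpr with a minimum count of 10, robust quasi-likelihood fit, Benjamini-Hochberg adjustment over all genes tested, threshold 0.05). DESeq2 1.42.0 was an alternative, with limma-voom 3.58.1. SE is the log2 fold change divided by the root of F. CPM and log2 CPM (prior count 2) are TMM-normalized, and TPM uses exonic length from GENCODE M21. Symbols were matched for 55227 of 55487 genes. Transcripts of like length are those of 80 to 125% of a transcript's length. Mice were treated as independent, and p-values measure the spread between mice. Rearing was assigned to whole nests, so p-values over mice do not measure the spread between nests. The members, lists and tests were chosen with earlier results of these data known. Genes named are the 4 lncRNAs, in each list those called, the 3 highest in mean CPM and both extremes of the log2 fold change (with others of interest named after their values were seen), genes near a member, and the 5 most alike. Snhg4, Snhg7 and Snhg16 matched no symbol. Some genes that this rule names are not reported here. The edgeR fit was tested on simulated counts of 18146 genes, where 11 unchanged genes were called. Alternatives are listed with their effect in the closing section.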

Additional observations from a re-analysis of the deposited data

Results flagged for a closer look

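Single mice lay far from the others of their group. Among the 9 SR mice of the first range, F3 had 734 CPM of Malat1, far above the rest. Among the 5 MS mice of that range, B1 had 549 CPM of Miat, far below the rest, and A1 had 2221 CPM of Snhg11, far above the rest. These came from 17 groups of values examined, and chance flags about 1 in 20.

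The MS library A2, which was left out of the comparisons, held signals above those of all SR mice. It had 784 CPM of Malat1, where the highest SR mouse had 734 CPM, and 2517 CPM of Snhg11, where the highest had 2281 CPM, all normalized over 21 libraries. Its Neat1 was 110 CPM and its Miat 594 CPM, the latter below all SR mice. Marker sums of A2 also stood apart. They were 880 CPM for striatum genes, 9025 CPM for oligodendrocyte genes and 115 CPM for dentate gyrus granule cell genes. In the mice kept, the highest striatum sum was 296 CPM, the highest oligodendrocyte sum 7483 CPM and the lowest dentate gyrus sum 237 CPM. The neuron sum of A2, 8201 CPM, lay within their range. The part of tissue content in its lncRNA levels was not tested.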

How the results depend on the processing

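No member was called in any of 18 other settings or when each of the 20 libraries was left out in turn (0 of 4 each time). Leaving out 1 library gave log2 fold changes of -0.047 to 0.050 for Malat1, 0.11 to 0.25 for Neat1, -0.13 to -0.05 for Miat and -0.12 to -0.02 for Snhg11. Leaving out 1 set gave 0.066 (without A or B) to 0.36 (without C) for Neat1 and -0.089 (without C) to 0.10 (without B) for Malat1. Malat1 changed sign with the length trend as a term (-0.037), with the share of small noncoding and histone counts as a term (-0.033), without set C (-0.089), without set D (-0.012), and without the MS mice C1 (-0.047) or C2 (-0.0095). The share of small noncoding and histone counts as a term also turned Neat1 to -0.31, Miat to 0.025 and Snhg11 to 0.087. The histone part of that share was higher in MS, and the cause of these changes was not tested. For all genes, the count of calls moved from 2 to 134 with DESeq2, to 0 with counts summed within sets, in limma-voom with a random effect of set and with the share of small noncoding and histone counts as a term, to 1 with all 21 libraries or with no filter, to 3 with the length trend as a term, to 340 without set C, to 0 without set A, B, D or F, to 1 without set G, and to 0 to 109 when 1 library was left out, with 109 without C2 and 109 without C3.

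Of the relations to RNA quality, 6 passed as reported and 5 to 7 in the alternatives. Miat against the histone share was lost with the condition means taken off (-0.45, adjusted p = 0.135), and Malat1 against the mitochondrial share passed with all 21 libraries (0.57, adjusted p = 0.028). Weak relations changed sign: Miat against the mitochondrial share (-0.11) and against the small noncoding share (-0.14) with all 21 libraries, and Snhg11 against the mitochondrial share (-0.069) with the condition means taken off. In alternatives chosen after seeing the data, all 21 libraries took Malat1 against astrocyte genes to r of 0.15 and Neat1 against oligodendrocyte genes to 0.52 (adjusted p = 0.051). No paired analysis was possible, because MS and SR mice were different animals and all mice of a nest shared a rearing condition. Depth limits little here, since the fewest counts of a member in 1 library were 1350 for Neat1.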
